A study of Mus musculus with 6 samples.

Results

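The genes described here are 35 markers of microglia, the resident macrophages of the brain, chosen by symbol from the 37310 genes of a whole-brain count table and matched without exception. They fall into 11 homeostatic genes, 17 pan-myeloid genes and 7 disease-associated genes. The brains came from 12-week-old male C57BL/6 mice homozygous for the E861A point mutation in *Adar1*, which removes the RNA-editing activity of the ADAR1 protein, and from *Adar1*+/+ mice. Both groups also lacked *Ifih1*, the gene of the cytosolic double-stranded RNA sensor MDA5, so the comparison was *Adar1* E861A/E861A *Ifih1*-/- (E861A) against *Adar1*+/+ *Ifih1*-/- (control), with 3 mice and 3 libraries of each. Both alleles were germline changes present in every cell, and the libraries were made from ribosome-depleted RNA of the whole brain. No brain with functional MDA5 was part of the comparison.

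Microglia survive on signals through the receptor CSF1R and in the healthy brain carry a set of surface receptors, among them P2RY12 and CX3CR1, with which they sense nucleotides and neuronal chemokine. During neurodegeneration and demyelination they lower these homeostatic genes and raise a disease-associated set that includes *Cst7*, *Itgax*, *Clec7a* and *Gpnmb*, a switch that depends in part on the lipid receptor TREM2 and its adaptor TYROBP. Type I interferon elicits a further, separate state in microglia marked by interferon-stimulated genes. ADAR1 editing keeps endogenous double-stranded RNA from triggering MDA5 and interferon, which is why the state of these cells is of interest in editing-deficient brain.

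No microglia gene was found to differ between the genotypes, and most estimates lay close to 0. Of the 35 genes, 30 passed the filter of 2 CPM (counts per 1000000 counts of the library) in 3 of 3 libraries of either genotype, and none of the 30 was called higher or lower at an adjusted p under 0.05 in edgeR's quasi-likelihood test with Benjamini-Hochberg adjustment over all 13649 genes tested. Over all genes tested, 69 were called, 56 higher and 13 lower in E861A, which is 0.506%, so 0 of 30 does not set the microglia genes apart from the rest. DESeq2, limma-voom and edgeR's likelihood ratio test also called 0 of the 30. At an unadjusted p under 0.05 the quasi-likelihood test found 2 of the 30, *Lyz2* and *Fcrls*, both higher in E861A. The same threshold took in 1230 of all 13649 genes tested, so 2 of 30 does not set the microglia genes apart either. The median log2 fold change (E861A minus control) of the 30 genes was -0.03, beside -0.001 over all genes tested, and 13 were positive and 17 negative. The largest difference was +0.48 (*Lyz2*) and the lowest -0.15 (*Ly86*).

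The 95% intervals of the 30 log2 fold changes reached from 0.121 to 0.347 to either side of the estimate, with a median of 0.226. All 30 intervals lay within a log2 change of 1 in either direction, 26 lay within 0.5, and the outermost bounds were -0.44 and 0.79. The intervals of *Lyz2* and *Fcrls* excluded 0 and the other 28 included it, before any adjustment for the number of genes. All 30 genes reached the filter in both genotypes. The library values of 6 of the 30 genes did not overlap between the genotypes, with *Fcrls*, *P2ry13* and *Lyz2* higher and *Itgam*, *Laptm5* and *Lpl* lower in E861A. Over all genes tested, 1883, or 13.8%, did not overlap. In whole-brain RNA, fewer cells of a type and less RNA per cell cannot be told apart.

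**Figure D1:**
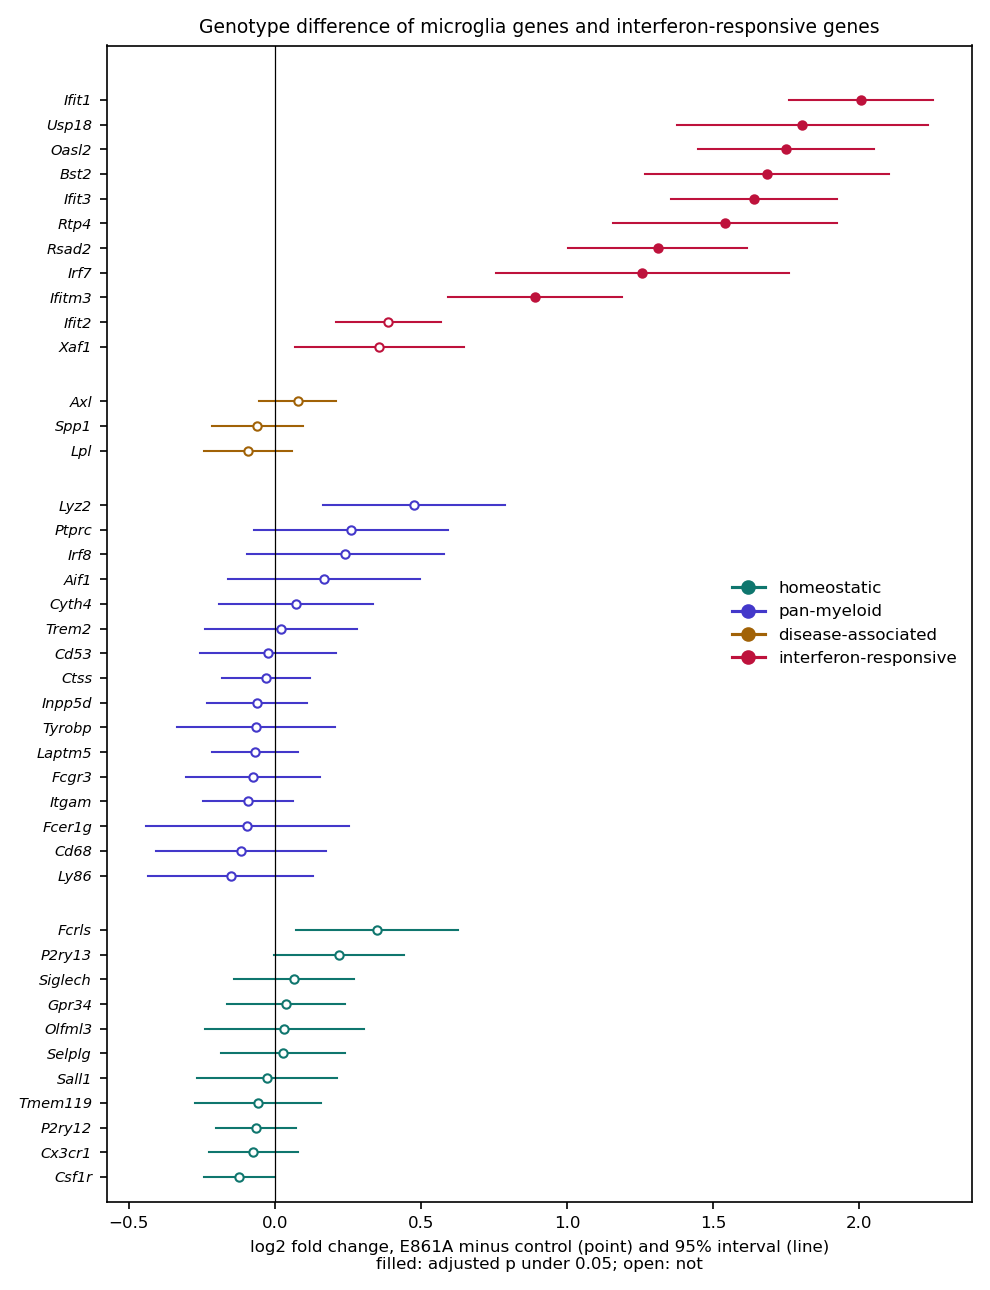
Log2 fold change (horizontal axis, E861A minus control) with its 95% interval for the 30 tested microglia genes and, at the top, 11 tested interferon-responsive genes, 6 of which (*Usp18*, *Oasl2*, *Bst2*, *Rtp4*, *Rsad2* and *Irf7*) reached the filter in E861A alone, with filled points at an adjusted p under 0.05. The microglia genes lie between -0.15 and 0.48 with open points only. The 5 interferon-responsive genes that reached the filter in both genotypes lie between 0.36 and 2.00.

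The libraries held from 26853488 to 38076753 counts, of which the 35 genes made up between 0.0358% and 0.038%. Single genes had from 5 to 2030 counts in a library. *Adar*, the mutated gene, was read at 151 to 169 CPM in E861A and 116 to 172 CPM in control, which checks no label since a point mutation need not alter the count. *Ifih1*, knocked out in both groups, still had 38 to 56 counts in every library, at 1.42 to 1.63 CPM in E861A and 1.10 to 1.33 CPM in control without overlap, and which part of the gene these reads came from is not given in the count table. Defining microglia markers were present in every library, among them *Tmem119* at 7.48 CPM or more and *P2ry12* at 22.0 CPM or more. One E861A library, replicate 1, held pituitary hormone transcripts at a summed 441 CPM against 1.30 to 3.34 CPM in the other five. Without it, 65 genes in all and none of the microglia genes were called.

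Among the homeostatic genes, the receptors that define resting microglia did not differ beyond the spread between brains. *Csf1r*, the receptor for the survival factors CSF1 and IL34, was the one with the most counts, at 49.1, 51.8 and 46.1 CPM in the E861A libraries and 51.7, 53.3 and 55.3 CPM in the controls. The groups overlapped only at their edges, with the highest E861A library just above the lowest control. Its log2 fold change was -0.12 ± 0.0563 (SE), with a 95% interval from -0.24 to 0.0001 and an adjusted p of 0.554 in edgeR's quasi-likelihood test, and it ranked second among the 3 lowest estimates of the 30. An exon of *Csf1r* overlaps *Hmgxb3* on the opposite strand, so part of its counts may depend on how strand was handled, which is not given in the sources used here.

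*P2ry12*, the ADP receptor through which microglia extend processes to injury, had 22.0, 24.1 and 23.1 CPM in E861A and 25.0, 24.3 and 23.1 CPM in control. Its log2 fold change was -0.06 with a 95% interval from -0.20 to 0.07. *Cx3cr1*, the fractalkine receptor, had 23.9, 27.2 and 25.8 CPM against 27.8, 28.2 and 25.2 CPM. The ranges of both genes overlapped, and for *Cx3cr1* the interval ran from -0.22 to 0.08. *Tmem119*, a membrane protein found on microglia and not on other brain macrophages, had 7.48, 8.30 and 7.82 CPM in E861A against 7.63, 8.88 and 8.10 CPM in control. The 2 sets interleaved, with a log2 fold change of -0.06 and an interval from -0.27 to 0.16. *Sall1*, a transcription factor that maintains microglial identity, had 21.4, 22.8 and 23.6 CPM in E861A and 26.4, 17.7 and 25.3 CPM in control. The control libraries of *Sall1* spread wider than the E861A libraries and enclosed them, replicate 2 being the low one. The within-genotype variance of *Sall1* was 19.2 times what counting alone gives, the largest ratio among the 30 genes.

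*Fcrls*, an Fc receptor-like gene used as a microglia marker, had the largest estimate of the homeostatic genes. It had 10.98, 10.6 and 10.9 CPM in E861A and 6.47, 9.14 and 9.89 CPM in control. Every E861A library lay above every control library, and control replicate 1 lay well below the other two. The log2 fold change was 0.35 ± 0.129 (SE) with a 95% interval from 0.07 to 0.63, an unadjusted p of 0.0172 and an adjusted p of 0.449 in edgeR's quasi-likelihood test, so it did not pass. Without control replicate 1 the value was 0.18. *P2ry13*, the neighbouring nucleotide receptor gene to *P2ry12*, had 8.17, 8.02 and 8.71 CPM in E861A and 6.30, 7.41 and 7.68 CPM in control. These groups did not overlap either, and the log2 fold change was 0.22 with an interval from -0.004 to 0.44 (edgeR's adjusted p = 0.558). Without control replicate 1, again the low library, it was 0.13. *P2ry13* and *P2ry12* both lie inside *Med12l* on chromosome 3 with 5388 bp between them. The remaining homeostatic genes, the lectin *Siglech* (0.07), the lysophospholipid receptor *Gpr34* (0.04), the secreted protein gene *Olfml3* (0.03) and the selectin ligand *Selplg* (0.03), had small positive log2 fold changes with intervals that included 0. Control replicate 1 was also the lowest library for *Olfml3*, at 7.52 CPM against 9.67 to 11.2 CPM in the other five. An exon of *Olfml3* overlaps *Gm16520* on the same strand, and the effect of this on its counts was not tested. For the 11 homeostatic genes the median log2 fold change was 0.03, with 6 positive and 5 negative.

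**Figure D2:**
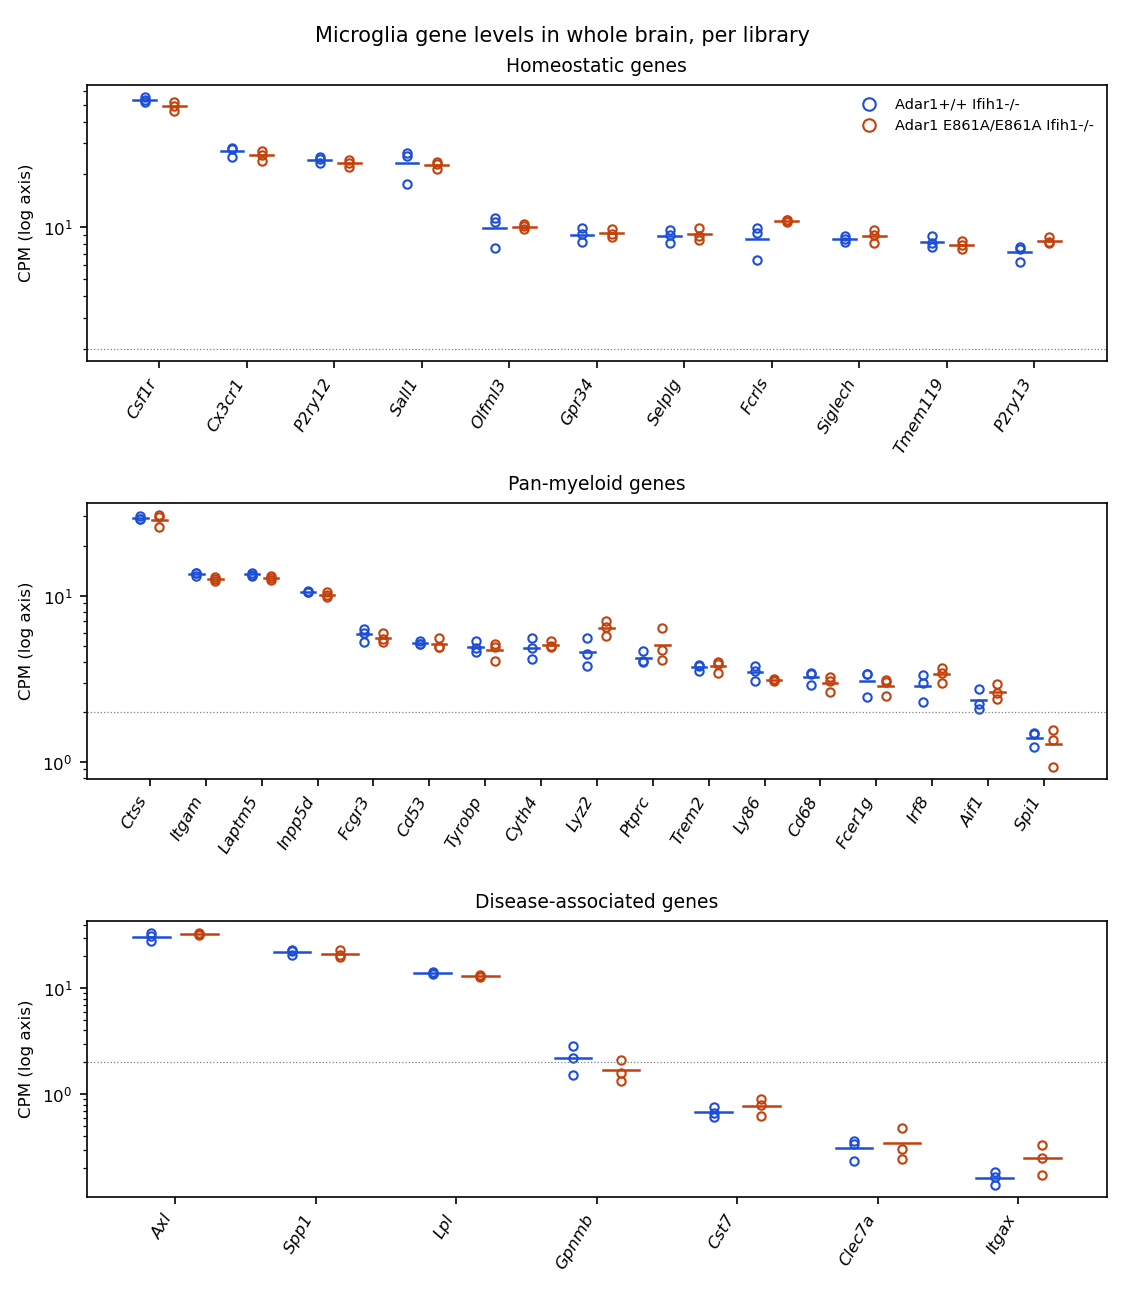
Level of each gene in CPM (vertical log axis) in the 3 control (blue) and 3 E861A (orange) libraries, with short lines at the group means and a dotted line at 2 CPM, in panels by role. For most genes the points of both genotypes overlap, and *Fcrls*, *P2ry13*, *Itgam*, *Laptm5*, *Lyz2* and *Lpl* are the 6 tested genes in which they do not.

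Among the pan-myeloid genes, the TREM2 receptor complex did not differ beyond the spread between brains. *Trem2*, a receptor for lipids and apolipoproteins, had 3.98, 3.45 and 3.87 CPM in E861A and 3.76, 3.81 and 3.53 CPM in control, with a log2 fold change of 0.02 and a 95% interval from -0.24 to 0.28. *Tyrobp*, the adaptor that carries the TREM2 signal, had 4.05, 4.93 and 5.10 CPM against 5.36, 4.83 and 4.57 CPM, with a log2 fold change of -0.06 and an interval from -0.33 to 0.21. The genotypes overlapped for both genes. *Fcer1g* (-0.09), the related adaptor of Fc receptors, and *Fcgr3* (-0.07), an Fc receptor for IgG, likewise had intervals that included 0. *Inpp5d*, the phosphatase SHIP1 that damps these signals, lay at -0.06.

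*Spi1* and *Irf8*, the myeloid transcription factors of this group, were low. *Spi1*, which encodes PU.1, the factor required for all microglia, had 0.935, 1.35 and 1.56 CPM in E861A and 1.47, 1.23 and 1.49 CPM in control, under the filter. *Irf8*, its partner in microglial development and itself an interferon-regulatory factor, had 2.98, 3.69 and 3.43 CPM in E861A and 3.32, 2.97 and 2.30 CPM in control. The *Irf8* groups overlapped, and its log2 fold change was 0.24 with an interval from -0.10 to 0.58 (edgeR's adjusted p = 0.681). *Aif1*, which encodes the widely used microglia stain IBA1, had 2.39, 2.59 and 2.94 CPM against 2.74, 2.08 and 2.24 CPM. It also overlapped, at a log2 fold change of 0.17 with an interval from -0.16 to 0.50.

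*Lyz2*, the lysozyme gene of macrophages, monocytes and granulocytes, had the largest difference of the 30 genes. Its counts were 187, 207 and 190 in the E861A libraries and 136, 211 and 159 in the controls, or 6.48, 5.71 and 7.08 CPM against 3.76, 5.54 and 4.45 CPM. The lowest E861A library lay only just above the highest control, replicate 2. The log2 fold change was 0.48 ± 0.145 (SE), with a 95% interval from 0.16 to 0.79, an unadjusted p of 0.0056 and an adjusted p of 0.311 in edgeR's quasi-likelihood test. Without control replicate 2 it was 0.65 and passed, at an adjusted p of 0.0339, and without control replicate 1 it was 0.34 and did not. *Lyz1*, a near-identical neighbour with which *Lyz2* can share reads, had from 0 to 3 counts a library.

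*Ptprc*, which encodes the pan-leukocyte phosphatase CD45, came after *Lyz2* and *Fcrls* among the positive estimates. It had 4.12, 4.71 and 6.37 CPM in E861A and 3.98, 4.04 and 4.62 CPM in control, so that E861A replicate 3 stood above the rest and the lowest E861A library lay among the controls. The log2 fold change was 0.26 with an interval from -0.07 to 0.59 (edgeR's adjusted p = 0.641), and 0.07 without that library. E861A replicate 3 was also the highest library for *Lyz2* and for a list of 10 monocyte and granulocyte markers. Those markers summed to 5.33, 3.31 and 14.1 CPM in E861A and 2.38, 2.39 and 4.09 CPM in control. They included the granulocyte genes *S100a8* and *S100a9*, at 3.50 and 4.13 CPM in E861A replicate 3, named after their values were seen. All 10 markers were under the filter, and their part in the *Lyz2* and *Ptprc* values was not tested.

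The lowest estimate was that of *Ly86*, which encodes MD-1, a partner of a Toll-like receptor homologue. It had 3.15, 3.11 and 3.05 CPM in E861A and 3.07, 3.78 and 3.50 CPM in control. The groups overlapped through control replicate 1, and the log2 fold change was -0.15 with an interval from -0.43 to 0.13 (edgeR's adjusted p = 0.770). It was -0.07 without control replicate 2, where *Sall1* (-0.18), *Fcgr3* (-0.14) and *Csf1r* (-0.11) were among the genes that lay lower. Without control replicate 1 it was -0.24. *Cd68*, a lysosomal glycoprotein often used as a sign of phagocytosis, had 3.22, 3.06 and 2.64 CPM against 3.37, 3.44 and 2.89 CPM, at -0.12 with an interval from -0.41 to 0.18. *Ctss*, the lysosomal protease cathepsin S, had 25.8, 29.6 and 30.5 CPM against 28.8, 29.0 and 30.1 CPM. Its E861A libraries enclosed the controls, at a log2 fold change of -0.03 with an interval from -0.18 to 0.12. *Itgam*, the CD11b chain of complement receptor 3, and *Laptm5*, a lysosomal membrane protein, were lower in every E861A library than in any control, but by only -0.09 and -0.07 on the log2 scale, with intervals that included 0. The tetraspanin *Cd53* lay at -0.02 and the ARF exchange factor *Cyth4* at 0.07. For the 16 tested pan-myeloid genes the median log2 fold change was -0.04, with 6 positive and 10 negative.

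The disease-associated genes split into 3 that the whole brain expresses well and 4 that were near or under the filter. *Axl*, a receptor for phosphatidylserine-bound ligands that other brain cells also express, had 31.9, 32.5 and 33.1 CPM in E861A and 33.2, 28.0 and 31.3 CPM in control. *Spp1*, osteopontin, had 19.5, 20.8 and 23.0 CPM against 22.8, 20.8 and 22.5 CPM. *Lpl*, lipoprotein lipase, had 12.8, 13.2 and 13.03 CPM against 14.2, 14.0 and 13.6 CPM. The first pair overlapped between genotypes, while *Lpl* was lower in every E861A library. Their log2 fold changes were 0.08, -0.06 and -0.09, and each 95% interval included 0, with -0.24 (*Lpl*) and 0.21 (*Axl*) as the outermost bounds.

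The other 4 disease-associated genes were scarce in both genotypes. *Cst7*, the protease inhibitor cystatin F, had 18, 29 and 24 counts in E861A and 24, 23 and 27 in control. *Clec7a*, the receptor dectin-1, had 7, 11 and 13 counts against 13, 9 and 12. *Itgax*, the CD11c integrin chain, had 5, 9 and 9 counts against 6, 7 and 5. At these depths the genotypes overlapped for all 3 genes. *Gpnmb*, a glycoprotein of lipid-laden macrophages, had 1.59, 1.32 and 2.12 CPM in E861A and 2.18, 1.52 and 2.83 CPM in control, again overlapping.

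The 5 genes under the filter were taken up in a fit with edgeR's filterByExpr in place of the CPM rule, which tested 19366 genes and called 110, or 0.568%. It tested 34 of the 35 genes, all but *Itgax*, and called none. In that fit the log2 fold change was 0.19 for *Cst7* with a 95% interval from -0.35 to 0.73, 0.12 for *Clec7a* (-0.66 to 0.91), -0.39 for *Gpnmb* (-0.87 to 0.09) and -0.12 for *Spi1* (-0.58 to 0.34). These intervals are wider than those of the 30 tested genes, and at 7 to 13 counts a library a change of *Clec7a* inside its interval was not detectable.

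Set in order per kilobase of exon, with lengths from GENCODE vM1, the microglia genes spanned a wide range in control brain. *Ctss* led at 21.6 CPM per kb, followed by *Spp1* (13.4), *Csf1r* (10.2), *P2ry12* (10.2), *Tyrobp* (8.72) and *Cx3cr1* (7.26). *Csf1r* and *P2ry12* did not differ in this order beyond their spread between libraries. At the foot of the order were *Gpnmb* (0.473), *Irf8* (0.405), *Clec7a* (0.137) and *Itgax* (0.040), in places 32 to 35. *Spp1*, *Axl* and *Lpl* are also made by neurons, vascular cells or other glia, so in whole brain their level is not a measure of microglia alone.

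Summed over their members, the groups of genes overlapped between genotypes as most single genes did. The homeostatic genes summed to 184 ± 5.61 CPM in E861A and 188 ± 3.92 CPM in control (mean ± SD, n = 3 each). The pan-myeloid genes summed to 116 ± 4.59 and 116 ± 0.266 CPM, and the disease-associated genes to 69.6 ± 3.08 and 70.1 ± 4.25 CPM. The ratio of disease-associated to homeostatic summed CPM was 0.371, 0.363 and 0.399 in E861A and 0.396, 0.352 and 0.371 in control. The libraries of both genotypes interleaved in this ratio, whose numerator was mostly *Axl*, *Spp1* and *Lpl*.

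**Figure D3:**
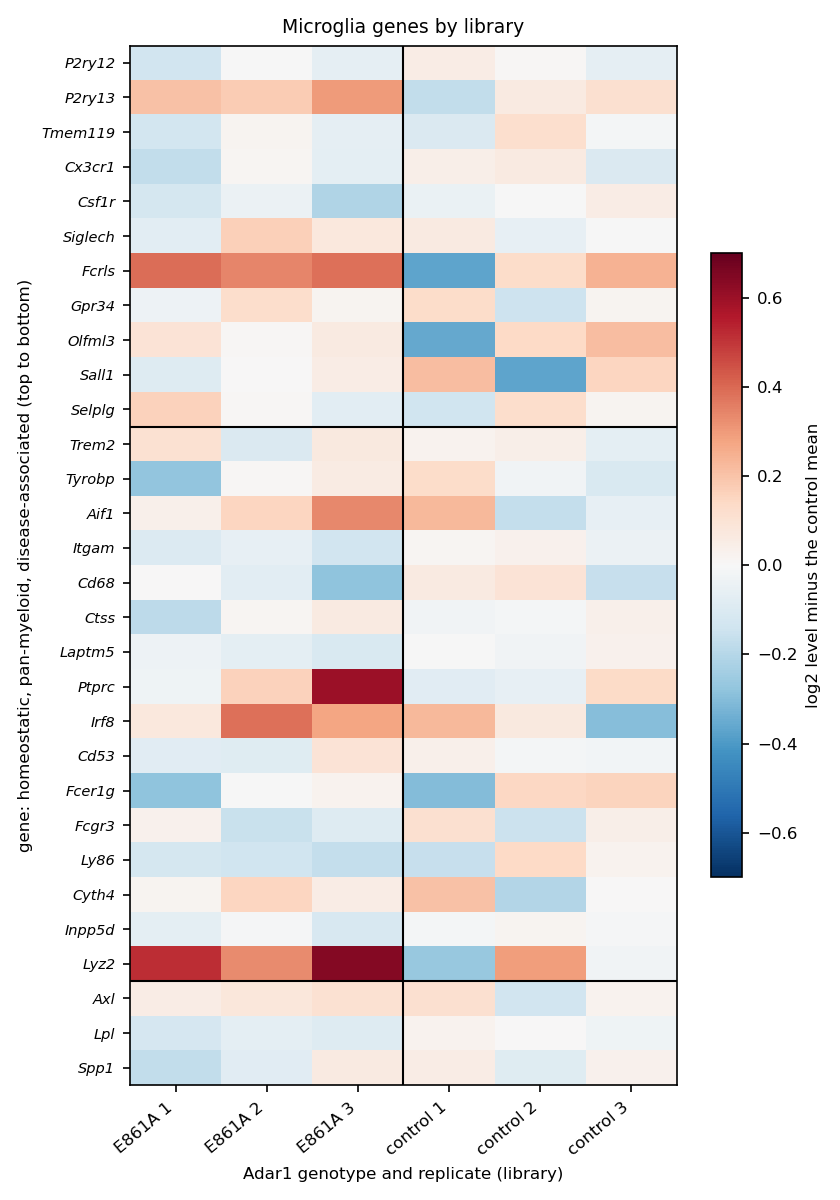
Log2 level of each of the 30 tested genes in each library minus its control mean (colour, from -0.7 to 0.7), with genes in rows by role and libraries in columns by genotype and replicate. Most cells are pale, *Fcrls* and *Lyz2* are red in all 3 E861A libraries, and control replicate 1 is blue for *Fcrls* and *Olfml3* and control replicate 2 for *Sall1*.

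Spread within genotypes was set against counting error, as a ratio that rises with a gene's counts at the same relative spread. For 16 of the 30 the within-genotype variance was at most 2 times what counting alone gives, and for 6 it was above 4 times, namely *Sall1* (19.2), *Olfml3* (7.34), *Fcrls* (6.93), *Lyz2* (4.43), *Ptprc* (4.30) and *Axl* (4.25). The 3 genes with the largest positive estimates were thus among those with the largest ratios, which do not rank the relative spread between brains.

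Promoter sequences were looked at for letters that the microglia genes share, since PU.1 and interferon-regulatory factors bind short DNA motifs. RefSeq windows from 250 bases before to 50 after the transcription start (GRCm38.p6) were available for 28 of the 35 genes. The core of the PU.1 motif, GAGGAA on either strand, occurred in 17 of the 28 (60.7%), and in 31.3% of all 27025 genes with a window. By role it occurred in 11 of 15 pan-myeloid, 3 of 7 homeostatic and 3 of 6 disease-associated genes. The core of the interferon-stimulated response element, GAAANNGAA on either strand, occurred in 4 of the 28 (14.3%), namely *Aif1*, *Ctss*, *Ly86* and *Spp1*, beside 9.76% of all genes and 7 of the 13 interferon-responsive genes with a window (53.8%). The 2 motifs can share letters, and a match is a description of the sequence and not evidence of binding.

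Shown here are 160 bases from before the start of 4 genes that differ in these letters, *Itgam* with a pair of PU.1 cores, *Fcrls* with one, and *Aif1* and *Ctss* with one of each motif, with *Ifit1* as an interferon-stimulated gene for contrast. Sequences are from RefSeq (GRCm38.p6), read 5′ to 3′ on the gene's own strand, with motif matches on either strand in capitals.
Itgam, chr7:128062480-128062639, plus strand: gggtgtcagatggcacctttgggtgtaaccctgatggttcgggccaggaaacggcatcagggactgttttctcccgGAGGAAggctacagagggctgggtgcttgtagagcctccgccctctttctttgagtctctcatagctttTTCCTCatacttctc
Fcrls, chr3:87263586-87263745, minus strand: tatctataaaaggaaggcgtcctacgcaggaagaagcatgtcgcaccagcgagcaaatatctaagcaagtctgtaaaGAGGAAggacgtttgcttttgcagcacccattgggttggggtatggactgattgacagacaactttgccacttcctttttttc
Aif1, chr17:35176053-35176212, minus strand: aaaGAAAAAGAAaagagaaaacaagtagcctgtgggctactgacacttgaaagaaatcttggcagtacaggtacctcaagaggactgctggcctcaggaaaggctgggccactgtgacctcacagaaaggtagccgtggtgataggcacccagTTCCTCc
Ctss, chr3:95526618-95526777, plus strand: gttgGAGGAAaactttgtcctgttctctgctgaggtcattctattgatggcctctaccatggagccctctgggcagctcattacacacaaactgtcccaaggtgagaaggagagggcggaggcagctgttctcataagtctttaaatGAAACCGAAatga
Ifit1, chr19:34640717-34640876, plus strand: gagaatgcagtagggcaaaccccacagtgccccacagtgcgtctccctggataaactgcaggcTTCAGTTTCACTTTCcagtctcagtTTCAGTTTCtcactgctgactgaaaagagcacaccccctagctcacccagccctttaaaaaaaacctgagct

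The *Ifit1* stretch holds 3 response element cores on the strand opposite to the one printed, at bases -109, -103 and -84 counted from the start, the first pair overlapping. *Ctss* and *Aif1* hold a single core at -21 and -157. In expression, *Ifit1* had 9.91, 9.43 and 9.27 CPM in E861A against 2.10, 2.39 and 2.63 CPM in control, a log2 fold change of 2.00 (edgeR's adjusted p = 5.87e-07, edgeR's quasi-likelihood test), beside -0.03 for *Ctss* and 0.17 for *Aif1*. *Ifit1* had the largest rise of the 5 interferon-responsive genes that reached the filter in both genotypes. Only 7 of the 13 interferon-responsive genes with a window held a core. A link between the number of cores and the difference in expression was not tested.

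Genes of the interferon-responsive state were read in the same libraries from a list of 19. Over the whole list the summed level was 77.5 ± 5.66 CPM in E861A against 34.7 ± 0.337 CPM in control (mean ± SD, n = 3 each), without overlap. In both genotypes 5 of the genes reached the filter, and 3 of these rose in edgeR's quasi-likelihood test, *Ifit1* (log2 fold change 2.00), which binds foreign RNA, *Ifit3* (1.64), its partner, and *Ifitm3* (0.89), which restricts viral entry. The other two, *Ifit2* (0.39, edgeR's adjusted p = 0.0714) and *Xaf1* (0.36, edgeR's adjusted p = 0.460), did not pass. A further 6, *Usp18*, *Oasl2*, *Bst2*, *Rtp4*, *Rsad2* and *Irf7*, reached the filter in E861A alone. Their admission already required a higher level there, so no count or median is drawn from them. The remaining 8 were under the filter. Other brain cells express these genes too, and which cells carried the difference was not tested. This list and the others were drawn up with results of these data known.

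The signalling partners of the microglia genes were not called either. Of the 7 survival ligands and TGF-beta genes all were tested and none called, and *Csf1* and *Il34*, the ligands of CSF1R, had log2 fold changes of -0.02 and -0.01. *Cx3cl1*, the neuronal ligand of CX3CR1, lay at -0.04. Of 13 genes of TREM2 and Fc receptor signalling, 9 were tested and none called. *Syk*, the kinase downstream of TYROBP, lay at -0.02, the lipoprotein *Apoe* at -0.02 and the phospholipase gene *Plcg2*, the lowest of that list, at -0.23. *Fcgr1*, the high-affinity IgG receptor, was the highest of that list, with 2.56, 2.32 and 2.35 CPM in E861A against 1.77, 1.44 and 2.02 CPM in control. It reached the filter in E861A alone, which bears on its place in the list. Its log2 fold change was 0.47 with a 95% interval from 0.13 to 0.80 (edgeR's adjusted p = 0.373).

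The ligands of AXL, *Gas6* and *Pros1*, lay at -0.10 and -0.02, and none of the 4 TAM receptor and ligand genes was called. None of the 8 tested of 10 further myeloid transcription factors was called, within a range from -0.09 (*Cebpb*) to 0.07 (*Ikzf1*). In control, *Mef2c* (404 CPM), *Mef2a* (192.5 CPM) and *Bhlhe41* (58.3 CPM) stood far above *Spi1* (1.395 CPM). Which cells these counts came from was not tested. Of 25 other microglia markers, 17 were tested and none called, with a median of 0.02, from -0.19 for the transporter gene *Slco2b1* to 0.29 for the surface receptor gene *Cd84*. Of 21 other disease-associated genes, 13 were tested and none called, with a median of -0.05, from -0.20 for the tetraspanin gene *Cd9* to 0.13 for the invariant chain gene *Cd74*, which reached the filter in E861A alone.

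**Figure D4:**
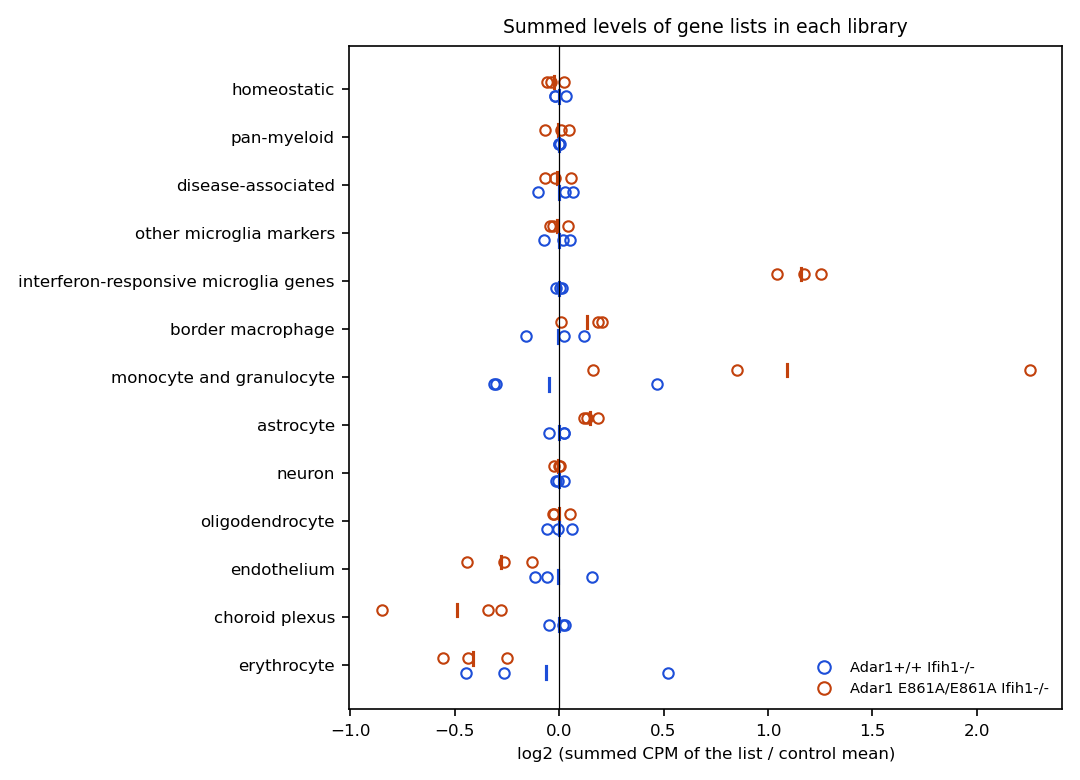
Summed CPM of each gene list in each library relative to the control mean (horizontal axis, log2), with blue points for control, orange for E861A and short lines at the group means. The microglia lists sit near 0 in both genotypes, the interferon-responsive list is apart, and the endothelium, choroid plexus and astrocyte lists do not overlap either. Of the 547 CPM to which the other microglia markers summed in control, *Sparc* alone had 255 CPM.

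Markers of other cells that a whole brain holds were read beside these values. Border macrophages, which share most pan-myeloid genes with microglia, summed to 18.0 to 20.6 CPM in E861A and 16.0 to 19.4 CPM in control over 10 markers. Of their 3 tested markers none was called, with *F13a1* at 0.28, *Cd163* at -0.06 and a median of 0.22. An unadjusted p under 0.05 in edgeR's quasi-likelihood test was found for 1 of the 3, and the libraries of 1 did not overlap between genotypes. Over all 13649 genes tested these counts were 1230 and 1883, and 3 genes are too few to set against them. The 10 lymphocyte markers summed to at most 1.42 CPM in any library. Endothelial markers summed to 122 to 151 CPM in E861A and 152 to 184 CPM in control, without overlap, and all 8 had negative log2 fold changes (median -0.27, none called). Choroid plexus markers also did not overlap, at 224 to 332 against 390 to 411 CPM, and astrocyte markers, mostly through *Slc1a2*, summed to 5584 to 5866 against 4979 to 5237 CPM. Neuron and oligodendrocyte markers overlapped between the genotypes. Erythrocyte markers also overlapped, at 107.9 to 133.4 CPM in E861A and 116.5 to 227.3 CPM in control, where replicate 2 was the high library. All 5 tested erythrocyte markers had negative log2 fold changes (median -0.47, none called). The part of these cells in the values of the microglia genes was not tested.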

How the data were processed

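The authors deposited raw counts per gene from ribosome-depleted, stranded, paired-end libraries of 6 whole brains. Per the labels, the 3 mice of each genotype were independent biological replicates. The submitters' processing notes name Trimmomatic 0.36, STAR 2.5.2a and build mm9, and the study's methods give STAR gene counts. Which strand column was kept is not given in the sources used here. Further deposited tables hold the authors' CPM, log2 fold changes and false discovery rates and were not used.

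CPM printed here were computed from column totals. Tests used edgeR 4.0.16 in R 4.3.3 (quasi-likelihood, TMM scaling) on the deposited counts of 13649 genes that reached 2 CPM throughout the 3 libraries of one genotype or the other, with Benjamini-Hochberg adjustment and a threshold of 0.05. The scripts were tested on simulated data. Alternatives were DESeq2 1.42.0, limma-voom (limma 3.58.1), the likelihood ratio test, other scaling and filters, a replicate block and leaving out each library. No label pairs the mice, and the block matched libraries by their number only. Deviations of same-numbered libraries from their genotype means had r = 0.22, 0.325 and 0.11 over genes. Deviations centred within 3 libraries must offset each other, so these values do not show that the mice were paired.

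Intervals are 95% and cover the spread between brains as edgeR estimates it. Libraries held 26853488 to 38076753 counts, and 3 counts correspond to 0.0788 to 0.112 CPM. The genes and lists were chosen with earlier results of these data known. An item of the interferon-responsive list is not reported here and was left out of that list's counts and sums. Values by library are given for called genes, the 3 highest and 3 lowest estimates, lead genes of each role and all disease-associated genes. From other lists, called genes, the extremes and direct partners are named, and *P2ry13*, *Ifit2*, *S100a8* and others outside this rule were added after their values were seen. Gene positions and lengths are from GENCODE vM1 (mm9), promoters from RefSeq.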

Additional observations from a re-analysis of the deposited data

How the results depend on the processing

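None of the microglia genes was called under DESeq2, limma-voom, the likelihood ratio test, both other scalings, filterByExpr, a filter of 2 CPM in all libraries or the replicate block, and the smallest adjusted p under the block was 0.131 (*Lyz2*). Without any filter 2 were called, *Lyz2* (adjusted p = 0.010) and *Fcrls* (adjusted p = 0.0347), in a fit whose prior degrees of freedom were infinite, so that spread came from the trend over genes alone. Leaving out 1 library gave 0 to 1, the 1 being *Lyz2* without control replicate 2. Genes called over the whole table went from 69 to 139 with the likelihood ratio test, 110 with filterByExpr, 376 with no filter, 42 with 2 CPM in all libraries and 158 with the replicate block, and ran from 42 (without E861A replicate 3) to 113 (without E861A replicate 2) when 1 library was left out. The cause was not tested.

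With 1 library left out, the median log2 fold change ran from -0.0537 to 0.0101 for the tested microglia genes, -0.0451 to 0.0422 for the homeostatic, -0.0537 to 0.0101 for the pan-myeloid and -0.0991 to 0.0016 for the disease-associated genes. The last was 0.0023 with filterByExpr and 0.068 with no filter, where more of the scarce genes enter. Changes of sign for single genes came only from leaving out a library: *Tmem119* (-0.11 to 0.0166), *Siglech* (-0.0065 to 0.14), *Gpr34* (-0.0208 to 0.0956), *Olfml3* (-0.13 to 0.14), *Sall1* (-0.18 to 0.0734), *Selplg* (-0.0457 to 0.10), *Trem2* (-0.0125 to 0.0775), *Tyrobp* (-0.13 to 0.0401), *Ctss* (-0.081 to 0.0504), *Cd53* (-0.0876 to 0.0139), *Fcer1g* (-0.24 to 0.0063), *Cyth4* (-0.0156 to 0.17) and *Spp1* (-0.13 to 0.0016). Depth limits *Itgax* and *Clec7a*, with at most 13 counts a library.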
